A study of Homo sapiens with 9 samples.

Results

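A pair of U2OS lines that differ in the length of one protein tail were compared gene by gene: Dendra2-RPB1-25R and Dendra2-RPB1-52R. U2OS is a human osteosarcoma line. In both lines RPB1, the largest subunit of RNA polymerase II, carries Dendra2, a photoconvertible fluorescent protein, at its N-terminus. The C-terminal domain (CTD) of RPB1 has 25 repeats in one line and 52 in the other, and both lines were kept in α-amanitin, a toxin that blocks RNA polymerase II, at 1 µg/ml for 6 days before harvest. Single-cell RNA was counted at transcript 3′ ends with unique molecular identifiers (UMIs), in 1 library per line. Cells were kept if they had 500 genes or more and no more than 20% of UMIs from mitochondrial genes, which left 3121 cells of Dendra2 25R and 2747 of Dendra2 52R, 5868 of the 20451 kept cells of the 6 libraries in the series. The other 4 libraries are Dendra2-RPB1-70R and HaloTag-RPB1 with 25, 52 or 70 repeats, all treated with the same agent. HaloTag is an enzyme tag that binds a synthetic ligand. The labels do not say whether a line is a single clone. For each HaloTag line the labels list 2 samples that share 1 deposited matrix, which was used as 1 library.

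The CTD is a tail of heptad repeats with the consensus tyrosine, serine, proline, threonine, serine, proline, serine. Kinases and phosphatases change its phosphorylation as the polymerase starts, elongates and ends a transcript, and its phosphorylated forms bind factors for capping, splicing and 3′ end formation. The human wild-type tail has 52 repeats, so the 25R tail is a shortened one. The CTD is also known for its part in the bursts in which genes are transcribed, and the deposited kinetic tables describe such bursts.

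A stretch of POLR2A, the gene of RPB1, is printed first because these repeats are what the 2 lines differ in. The bases are from GENCODE v44 on GRCh38, chr17:7513170-7513274, plus strand, in exon 29 of 30. They encode 5 consecutive consensus heptads, and the first codon of each heptad, a tyrosine codon, is in capitals. The reference coding sequence holds 21 exact consensus heptads, of which 15 stand in 1 run.
POLR2A heptads: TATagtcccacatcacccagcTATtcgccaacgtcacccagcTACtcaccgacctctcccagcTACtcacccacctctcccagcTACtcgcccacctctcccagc

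Promoter sequences are printed for 5 genes that the results below turn on. Each window runs from 250 bases before to 50 bases after the gene's start (RefSeq, GRCh38.p14), printed 5′ to 3′ on the gene's strand. In the first 3, CG dinucleotides, the sites where DNA can be methylated, are in capitals. GTSF1, detected in Dendra2 52R and nearly absent in Dendra2 25R, has 10 of them at chr12:54473553-54473852 on the minus strand. NES has 14 at chr1:156677358-156677657, minus strand, and its neighbour CRABP2 has 20 at chr1:156705735-156706034, minus strand. The median over 34943 promoters is 14, and 56.3%, 50.2% and 41.0% of promoters hold at least as many as GTSF1, NES and CRABP2. The letters TATAAA stand in none of the 3 windows on either strand, and 11.6% of all promoters of this length hold them.
GTSF1: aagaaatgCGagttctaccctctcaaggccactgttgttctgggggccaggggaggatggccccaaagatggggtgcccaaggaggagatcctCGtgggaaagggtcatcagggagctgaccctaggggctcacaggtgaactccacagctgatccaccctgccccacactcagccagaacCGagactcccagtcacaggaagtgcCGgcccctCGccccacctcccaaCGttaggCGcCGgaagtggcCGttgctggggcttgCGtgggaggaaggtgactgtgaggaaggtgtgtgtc
NES: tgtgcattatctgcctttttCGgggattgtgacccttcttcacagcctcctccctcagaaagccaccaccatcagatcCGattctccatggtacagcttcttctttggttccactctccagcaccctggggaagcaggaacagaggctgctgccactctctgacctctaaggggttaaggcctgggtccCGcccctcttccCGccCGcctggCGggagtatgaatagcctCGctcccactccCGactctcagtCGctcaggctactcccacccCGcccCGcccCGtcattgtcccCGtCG
CRABP2: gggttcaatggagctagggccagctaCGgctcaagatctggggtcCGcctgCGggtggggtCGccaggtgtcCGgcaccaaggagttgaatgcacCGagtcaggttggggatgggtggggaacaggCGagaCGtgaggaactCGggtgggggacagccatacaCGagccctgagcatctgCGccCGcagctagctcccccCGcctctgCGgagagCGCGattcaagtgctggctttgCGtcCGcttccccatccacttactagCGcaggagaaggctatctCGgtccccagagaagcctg

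SPANXB1 and SPANXC are testis-expressed genes on the X chromosome that were higher together in Dendra2 25R. Their promoter windows align over 261 columns with 97.7% identity, 5 mismatches and 1 gap. Bases that differ or lack a partner are in capitals, at chrX:141002383-141002643 on the plus strand and chrX:141242508-141242767 on the minus strand. The transcripts of these genes were not compared. Whether the counting tells them apart was therefore not tested, and their separate levels are uncertain.
SPANXB1: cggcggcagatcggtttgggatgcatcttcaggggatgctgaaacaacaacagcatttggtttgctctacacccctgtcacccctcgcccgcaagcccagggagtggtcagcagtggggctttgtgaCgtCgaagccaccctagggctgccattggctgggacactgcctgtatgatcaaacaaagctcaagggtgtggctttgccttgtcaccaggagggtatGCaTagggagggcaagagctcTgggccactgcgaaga
SPANXC: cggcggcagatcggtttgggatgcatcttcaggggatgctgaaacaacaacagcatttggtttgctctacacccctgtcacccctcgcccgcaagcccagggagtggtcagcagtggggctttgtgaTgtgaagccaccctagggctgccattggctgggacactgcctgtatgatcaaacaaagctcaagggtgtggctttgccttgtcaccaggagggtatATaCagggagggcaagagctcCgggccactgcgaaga

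The kept cells held 52730959 UMIs in Dendra2 25R and 52553686 in Dendra2 52R. The median cell had 15770 UMIs and 4039 genes in 25R and 18256 UMIs and 4443 genes in 52R, with a mitochondrial share of 5.99% and 6.13%. The libraries shared 3 cell barcodes. Of the marker lists, vimentin (VIM), a mesenchymal filament protein, stood at 2777 and 2926 CPM (UMI counts scaled to one common library total), while COL1A2, a collagen chain of mesenchymal cells, was at or below 1 UMI. The label calls the cells epithelial. Of the 11 listed epithelial markers 8 were under 1 CPM in 25R and 7 in 52R. CDH1 (E-cadherin) stood at 0.303 and 0.381 CPM, KRT5 at 0 and 0.381 CPM and GRHL2 at 0 in both. The keratins KRT8 and KRT18, outside this list, stood at 144 and 699 CPM in 25R and at 551 and 997 CPM in 52R. Of 11 epithelial markers KRT14 alone reached a mean of 10 CPM, and no leukocyte, endothelial or erythroid marker did. With 1 library a side no difference below has a replicate check or a p-value, and each interval covers counting error only. What differs between the libraries for reasons other than the CTD cannot be told apart from it.

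Most genes stood at nearly the same level in both libraries. Counts were summed over cells and scaled to CPM, and ratios are given as log2 of CPM plus 1, 25R over 52R, which understates the change of low genes. Of 7970 genes with a mean of at least 10 CPM, the median log2 ratio was -0.02, and percentiles 5 and 95 lay at -0.63 and 0.47. At least 2-fold higher in 25R were 50 genes, 0.627% of those tested, and at least 2-fold lower were 120, or 1.51%, together 170 genes or 2.13%. For all 170 the 95% counting interval of the ratio excluded 1 and the share of cells with a UMI differed in the same direction. Both come from the counts that picked these genes and are nearly fixed by a 2-fold ratio at this level. They add no separate support. Just inside the threshold were TM7SF3, at 64.4 CPM in 25R and 31.6 CPM in 52R, and FXYD6, at 10.3 and 21.7 CPM. Just outside it were KLF2, at 29.3 and 14.2 CPM, and DYNC1H1, at 56.5 and 114 CPM. Long noncoding RNAs passed it more often than protein-coding genes: 2.56% of 273 were higher and 4.03% lower, against 0.56% and 1.42% of 7682.

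**Figure D1:**
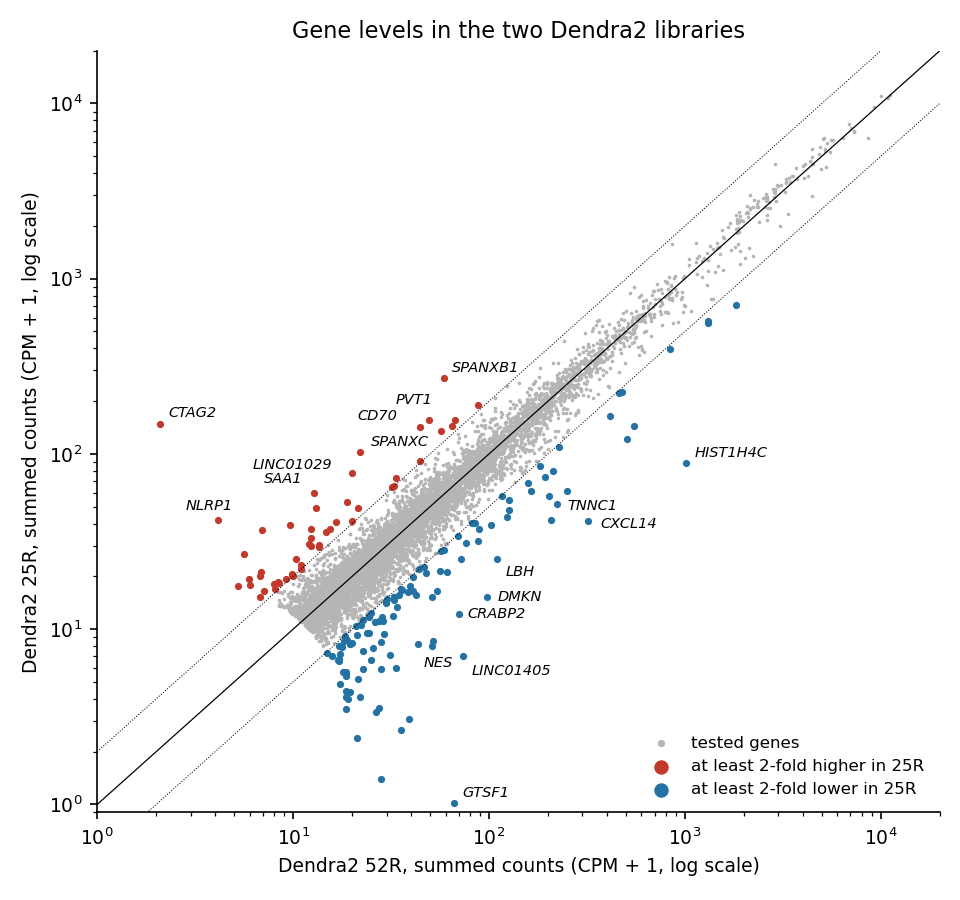
Summed level of each tested gene in Dendra2 52R (horizontal) and Dendra2 25R (vertical), in CPM plus 1 on log axes; dotted lines mark a 2-fold difference. The 50 genes higher in 25R are red and the 120 lower are blue, with CTAG2 and GTSF1 far from the diagonal.

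A pair of genes was close to on in one library and off in the other. GTSF1 encodes a zinc-finger protein of the piRNA pathway that is mostly known from germ cells, and lies at chr12:54455950-54473602. It had 1 UMI in Dendra2 25R and 3441 in Dendra2 52R, which is 0.019 and 65.5 CPM. The ratio of 52R over 25R was 3453, with a counting interval of 619.3 to 136400. In 25R 1 of 3121 cells held the transcript, and in 52R 1750 cells (63.7%) did. After each cell was thinned to 5000 UMIs, 0 of 3020 cells had one in 25R, which allows a share of up to 0.0993% of cells with a UMI, and 28.1% had one in 52R. All 4 other libraries of the series held GTSF1, at 81.5 CPM in Dendra2 70R and at 77.2, 54.9 and 82.8 CPM in HaloTag 25R, 52R and 70R, so Dendra2 25R was the library without it.

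CTAG2, a cancer-testis antigen gene on the X chromosome (chrX:154651972-154653579), showed the reverse. It stood at 148 CPM in Dendra2 25R and 1.10 CPM in Dendra2 52R, a ratio of 133.9 (counting interval 103.5 to 176.5). Among thinned cells 46.7% had a CTAG2 UMI in 25R and 0.627% in 52R (75.5% and 1.06% before thinning). The thinned cells with the transcript numbered 1411 in 25R and 17 in 52R. The 52R share was not set against a background from free RNA. In the 29 cells of Dendra2 52R with CTAG2, 18 also had GTSF1 (62.1%, exact 95% interval 42.3 to 79.3%), close to the 63.7% of the other cells of that library. Of the 2357 cells of Dendra2 25R with CTAG2, 1 had GTSF1. The 29 cells thus carried the GTSF1 of their own library. CTAG2 was low in all other libraries, at 11.4 CPM in Dendra2 70R and 2.36, 7.93 and 35.2 CPM in HaloTag 25R, 52R and 70R.

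The other members of the cancer-testis list with a mean of at least 10 CPM were within 2-fold. Of 15 tested members of the list, GTSF1 included, 1 was 2-fold higher and 1 lower (0.627% and 1.51% of all tested genes were). The median log2 ratio was -0.09. MAGEA4 stood at 427 and 375 CPM and MAGEA1 at 90.9 and 96.8 CPM. MAGED2, a widely expressed MAGE gene, was at 68.6 CPM in 25R and 135 CPM in 52R, just short of 2-fold. Below that mean, and chosen after their values were seen, MAGEC1 stood at 14.1 and 1.16 CPM and GAGE2A at 9.33 and 1.92 CPM. The SPANX pair lay outside the list: SPANXB1 stood at 270 CPM in 25R and 57.8 CPM in 52R, and SPANXC at 101.7 and 21.03 CPM. Both were higher by more than 4-fold in 25R and found in more cells, 57.9% against 21.4% of thinned cells for SPANXB1. HaloTag 25R held 246 CPM of SPANXB1 and 113 of SPANXC, and HaloTag 52R held 71.3 and 25.7.

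Among genes with a mean of at least 50 CPM the widest gap after CTAG2 was that of HIST1H4C, a replication-dependent gene of histone H4 (chr6:26103933-26104337). Most messages of this gene class end in a stem-loop without a poly(A) tail, and a library primed on poly(A) counts the part it can prime. HIST1H4C stood at 87.4 CPM in Dendra2 25R and 1016 CPM in Dendra2 52R, a ratio of 11.6 (counting interval 11.3 to 12.0) of 52R over 25R. It was found in 7.58% of thinned cells in 25R and 52.4% in 52R (9.87% and 56.1% before thinning). In the cells that had it, the mean was 5.42 UMIs in 25R and 9.39 in 52R, so both the number of cells and the amount in them differed. Cells with at least 5 UMIs of it made up 2.85% of Dendra2 25R (exact 95% interval 2.28 to 3.51%) and 30.3% of Dendra2 52R (28.6 to 32.1%). Among the other libraries this share was 2.37% in Dendra2 70R, 5.38% in HaloTag 52R, and 0.262% and 0.224% in HaloTag 25R and 70R. At both tags the 52R library held the highest level: Dendra2 70R stood at 80.6 CPM, and HaloTag 25R, 52R and 70R at 17.6, 185 and 7.37 CPM.

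The few HIST1H4C-rich cells of Dendra2 25R had the GTSF1, CTAG2 and SPANXB1 levels of their own library. In these 86 cells GTSF1 was at 0 CPM, CTAG2 at 107 CPM and SPANXB1 at 260 CPM. The summed other replication-dependent histone genes stood at 2276 CPM in them and at 1423 CPM in the remaining cells, and in Dendra2 52R at 2475 CPM in the 823 rich cells and 1471 CPM in the rest. Cells were also split into terciles by the share of UMIs from S phase genes. The low tercile held 41.6% of the cells of 25R and 34.5% of those of 52R, so S phase transcripts moved with the groups. Within the low, middle and high tercile HIST1H4C was 11.3, 9.34 and 11.3 times as high in 52R, so the ratio was about as large within each tercile as over all cells.

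**Figure D2:**
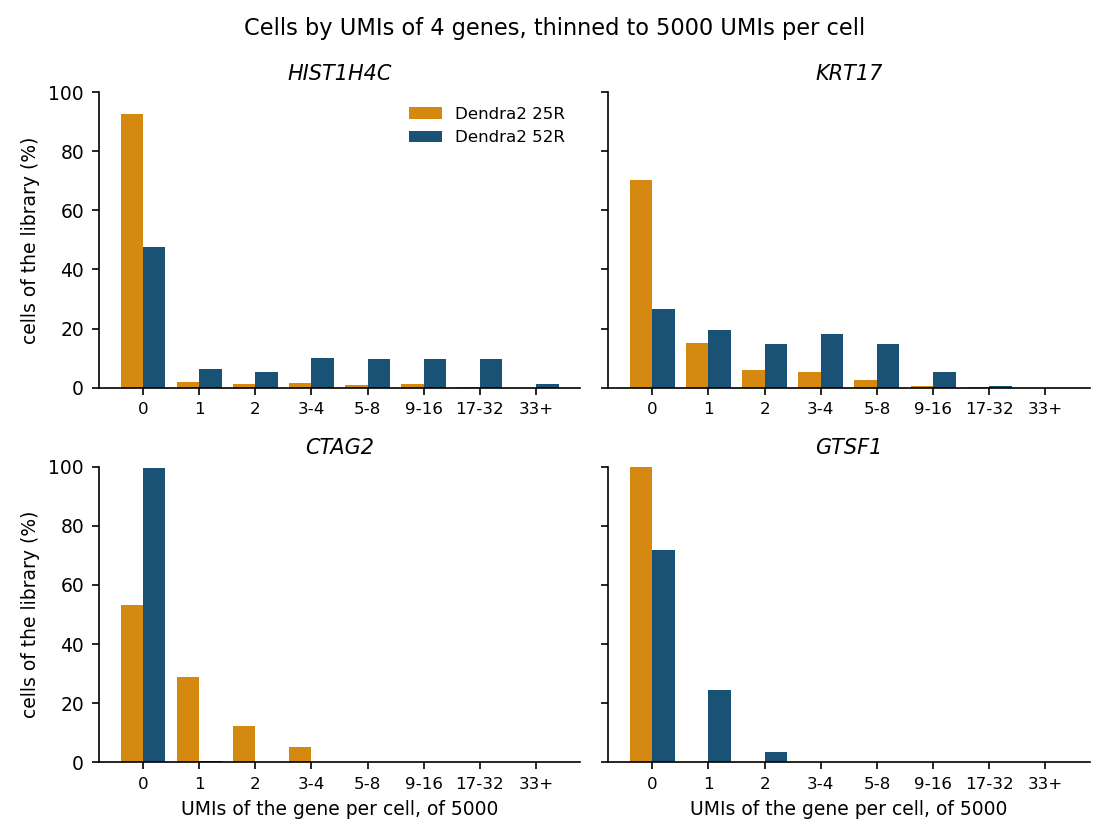
Share of cells (%) by the number of UMIs of 4 genes in each cell, after thinning to 5000 UMIs, in Dendra2 25R (orange) and Dendra2 52R (blue). HIST1H4C has a long tail in 52R, CTAG2 is nearly all 0 in 52R and GTSF1 is all 0 in 25R.

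No other replication-dependent histone gene passed 2-fold. Of 23 tested members 5 were above 0 and 18 below, with a median log2 ratio of -0.37 against -0.02 for all genes. HIST1H1A, a linker histone gene, stood at 90.6 CPM in 25R and 174 CPM in 52R, and HIST1H3D, a histone H3 gene, at 74.98 and 118 CPM. HIST1H2AK, a histone H2A gene, was at 7.17 and 13.3 CPM. HIST2H2AC, also H2A, went the other way at 193 and 177 CPM. Among cells low in both S phase and G2/M transcripts (18.3% of 25R and 16.0% of 52R) the median of this list turned to 0.13. The S phase list had a median of 0.31 in those cells, so they were not matched for S phase transcripts. The cause was not tested. Across all cells the S phase list had a median of -0.11 over 41 genes and the G2/M list -0.10 over 54. In these lists UBR7, which lies on the lower arm 14q described below, was 2-fold lower (1.51% of all tested genes were). Its log2 ratio fell short of 2-fold under other settings. It was -0.99 with another library scaling (TMM), -0.73 with a pseudocount of 5 and -0.78 among cells low in S phase and G2/M transcripts.

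Keratins and other intermediate filament genes included several of the largest gaps. KRT8, a keratin of simple epithelia, stood at 144 CPM in Dendra2 25R and 551 CPM in Dendra2 52R, and was found in 49.4% and 89.5% of thinned cells. KRT17, a keratin induced in stressed epithelia, was at 121 and 505 CPM and in 29.7% and 73.5% of thinned cells. NES, which encodes nestin, a filament protein of progenitor cells, stood at 6.998 and 50.08 CPM. Each was at least 3.8-fold lower in 25R. KRT17 and NES were lower with 25 repeats at the other tag too, with KRT17 at 44.7 CPM in HaloTag 25R against 530.5 in HaloTag 52R, and NES at 9.31 against 56.7. KRT8 was nearly level there, at 299 against 312 CPM.

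Of the 11 tested genes of the filament list none was 2-fold higher and 3 were lower (0.627% and 1.51% of all tested genes were). The list median was -0.37. The 3 were NES, KRT8 and KRT81, a hair keratin at 561 and 1316 CPM. KRT8 and KRT81 lie in a lowered run of chromosome 12 described below. Once window medians were subtracted, as below, the list median was -0.07. KRT18, the partner of KRT8, stood at 699 and 997 CPM, and the lamin genes LMNA, LMNB1 and LMNB2 had log2 ratios of -0.09, -0.11 and 0.07. KRT14 and KRT75, chosen for mention after their values were seen, were at 2.07 and 37.9 CPM and at 1.67 and 34.6 CPM. Summed over all 11 epithelial markers the level was 8.50 CPM in 25R and 57.6 CPM in 52R, and KRT14 made up most of the latter. The part of these markers in the results was not tested.

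Tested genes of the contractile apparatus were lower almost throughout in Dendra2 25R. Of 20 tested members of the actin and smooth-muscle list 19 were below 0, 4 of them by at least 2-fold (1.51% of all tested genes were), and the median was -0.40. TNNC1, the calcium-binding troponin of slow and cardiac muscle, stood at 51.0 CPM in 25R and 221 CPM in 52R. TAGLN, an actin-binding protein of smooth muscle, was at 60.1 and 249 CPM, and TNNT1, a slow skeletal troponin T, at 164 and 414 CPM. TPM1, a tropomyosin that lies along actin filaments, was at 573 and 1308 CPM. The abundant actins moved less, with ACTB at 2537 and 2716 CPM and ACTG1 at 1447 and 1902 CPM. TPM2 was the tested member above 0, at 1015 and 974 CPM. In HaloTag the median of the tested genes was -0.65, and there TNNC1 rested at 20.5 CPM with 25 repeats against 369 CPM with 52. Below the filter on the mean, ACTA2, a smooth-muscle actin, went the other way at 5.65 and 2.44 CPM in Dendra2 25R and 52R. In HaloTag 25R and 52R ACTA2 stood at 16.3 and 3.82 CPM. The other listed genes below the filter, ACTG2, LMOD1 and SYNPO2, were under 1 CPM in both Dendra2 libraries.

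Matrix genes showed the same direction. Of 23 tested matrix and osteoblast genes 20 were below 0, 3 were at least 2-fold lower and 1 higher (1.51% and 0.627% of all tested genes), and the median was -0.50. COL1A1, the main chain of type I collagen, stood at 40.8 CPM in 25R and 206 CPM in 52R, and was found in 18.6% and 55.9% of thinned cells. COL11A1 and COL5A2, chains of fibril-forming collagens, were at 2.39 and 25.6 CPM and at 4.17 and 20.5 CPM. LUM, which encodes lumican, a proteoglycan of collagen fibrils, was the exception at 16.8 and 5.02 CPM. FN1 (fibronectin) and SPARC, a matrix glycoprotein of bone, were lower by less than 2-fold, at 20.5 and 33.1 CPM and at 123 and 174 CPM. The median of the list in HaloTag was -0.38.

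**Figure D3:**
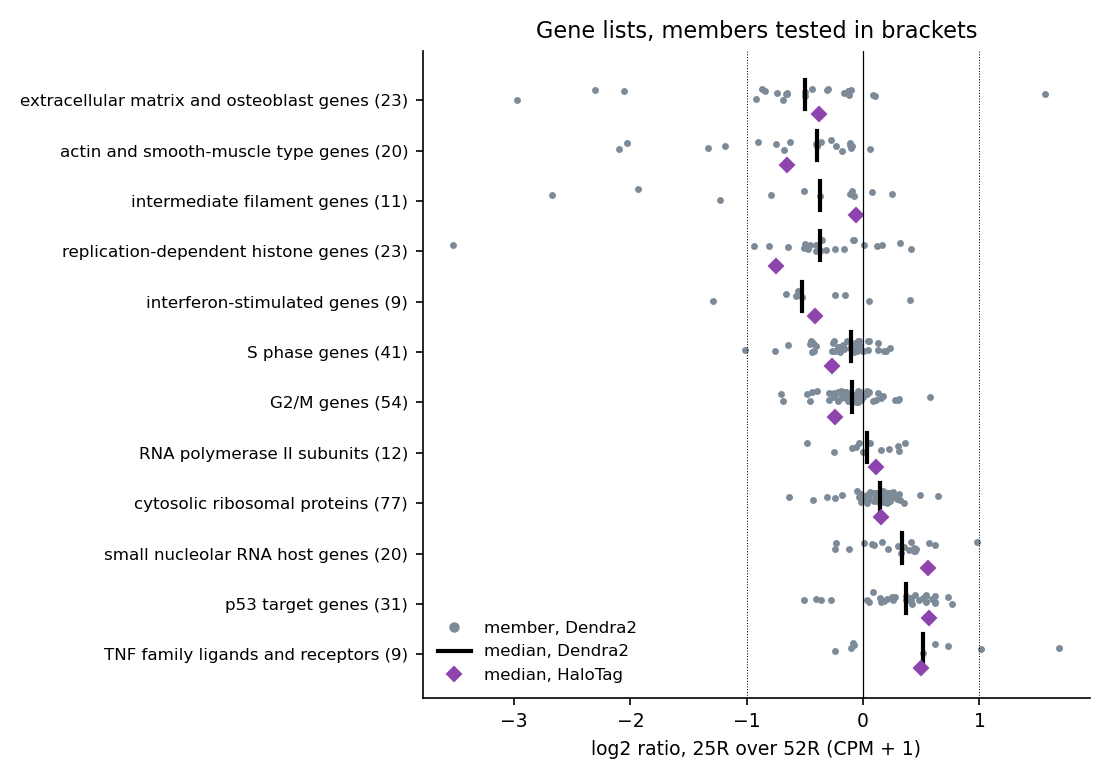
Log2 ratio of 25R over 52R (CPM plus 1) of each tested member of 12 gene lists in Dendra2 (grey points), with the Dendra2 median (black bar) and the HaloTag median (purple diamond); dotted lines mark 2-fold. Matrix, actin, filament, histone and interferon lists lie mostly below 0, and the p53, small nucleolar RNA host and ribosomal lists mostly above it.

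Secreted proteins were found on both sides. CXCL14, a chemokine, stood at 40.3 CPM in Dendra2 25R and 318 CPM in Dendra2 52R and was found in 10.1% and 49.0% of thinned cells. KISS1, which encodes the kisspeptin precursor, was at 7.57 and 50.8 CPM, and DMKN (dermokine, a secreted protein of skin) at 14.3 and 97.1 CPM. OLFML3, a secreted olfactomedin-domain protein, was at 7.19 and 42.6 CPM. All 4 were at least 5.9-fold lower in 25R. In HaloTag CXCL14 stood at 7.79 and 282 CPM, a log2 ratio of -5.01 against -2.95 in Dendra2, while KISS1 was level at 65.02 and 68.39 CPM. In the other direction SAA1, which encodes serum amyloid A, an acute-phase protein, stood at 58.7 CPM in 25R and 11.7 CPM in 52R. In HaloTag 25R it reached 197 CPM, against 27.6 CPM in HaloTag 52R.

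CD70, a TNF family ligand that binds CD27 on lymphocytes, was 3.27-fold higher in Dendra2 25R (counting interval 3.12 to 3.43). It stood at 142 CPM there and at 43.4 CPM in Dendra2 52R, in 43.6% and 17.7% of thinned cells. TNFSF9, the ligand of 4-1BB, was at 21.1 and 9.91 CPM. These were the 2 of 9 tested TNF family genes at least 2-fold higher (0.627% of all tested genes were), none was lower by as much, and the list median was 0.52. TNFSF9 was at a log2 ratio of 0.80 with a pseudocount of 5 and at 0.79 among cells low in S phase and G2/M transcripts, short of 2-fold, and the list median without the filter on low values was -0.0017. The receptors FAS and TNFRSF10B, which are also p53 targets, were at 26.1 and 15.3 CPM and at 21.2 and 14.5 CPM, and TNFRSF1A, the main TNF receptor, at 43.6 and 51.8 CPM. BIRC3, an inhibitor of apoptosis induced by NF-κB, was the 1 of 11 tested NF-κB targets past 2-fold, at 29.8 and 11.1 CPM. Of all tested genes 0.627% were higher by as much. Of 9 interferon-stimulated genes 7 were below 0. Among them IFITM2, which restricts virus entry, was 2-fold lower at 30.2 and 75.3 CPM (1.51% of all tested genes were).

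p53 target genes stood slightly higher in Dendra2 25R as a group, though none passed 2-fold. Of 31 tested members 27 were above 0, with a median log2 ratio of 0.37 against -0.02 for all genes. CDKN1A, the p21 inhibitor of cyclin-dependent kinases, stood at 118 CPM in 25R and 86.5 CPM in 52R, and MDM2, the ligase that degrades p53, at 71.1 and 53.4 CPM. GADD45A, a stress-response gene, was at 182 and 107 CPM, while TP53I3 went the other way at 70.7 and 101 CPM. Among cells low in S phase and G2/M transcripts the median of this list was 0.03. The S phase list stood at 0.31 in those cells, so they were not matched for S phase transcripts, and the cause was not tested. MANCR, a long noncoding RNA below the level needed for the test of fold, was at 14.96 and 2.17 CPM.

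Host genes of small nucleolar RNAs, whose spliced transcripts are known to be unstable when translation goes on, had 17 of 20 members above 0 and a median of 0.34. SNHG15 was nearest to the threshold at 70.6 and 35.4 CPM, and SNHG29 was below 0 at 571 and 670 CPM. Cytosolic ribosomal protein genes had 67 of 77 members above 0, with a small median of 0.15. Genes of RNA polymerase II itself were even: 7 of 12 subunits were above 0 and 5 were not, and the median was 0.03. POLR2A stood at 293 CPM in 25R and 238 CPM in 52R. HaloTag 25R had 195 CPM and HaloTag 52R had 322, the other way round. The counts do not separate tagged from untagged POLR2A transcripts.

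Further genes with large gaps belong to no list. LINC01405, a long noncoding RNA, stood at 6.05 CPM in Dendra2 25R and 72.8 CPM in Dendra2 52R. CRABP2, which carries retinoic acid to its receptor, was at 11.3 and 68.96 CPM, and LBH, a transcription cofactor known from limb and heart development, at 23.99 and 109 CPM. All 3 were at least 4.5-fold lower in 25R. On the higher side NLRP1, an inflammasome sensor, was at 40.8 and 3.16 CPM, 12.9-fold higher (counting interval 11.0 to 15.2). FAT3, an atypical cadherin, was at 35.7 and 5.92 CPM, and the zinc-finger gene ZNF283 at 38.4 and 8.60 CPM. For FAT3 the HaloTag libraries were closer to each other, with 17.4 CPM at 25 repeats and 12.2 CPM at 52.

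Among the other genes higher in 25R, LINC01029 stood at 76.5 CPM in 25R and 19.01 CPM in 52R, and NFE4, an erythroid transcription cofactor, at 48.4 and 12.1 CPM. PVT1, the long noncoding RNA next to MYC, was at 155 and 48.6 CPM, and MYC, at 77.2 and 43.8 CPM, was short of 2-fold. SLCO1B3, an anion transporter of liver, was at 36.2 and 11.3 CPM. BNIP3, a hypoxia-induced gene of mitophagy, stood at 156 and 66.0 CPM and in 51.5% and 27.0% of thinned cells. PVT1, NFE4, SLCO1B3 and BNIP3 all lie in stretches of the genome whose genes were higher together, described next.

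Neighbouring genes shifted together over long stretches of some chromosomes. Tested genes were grouped by start into 216 windows of 10 Mb with at least 15 genes each, and the median log2 ratio was taken in each window. In 149 windows it lay within 0.1 of 0, in 16 it was at or below -0.3 and in 11 at or above 0.3. The lowest were the last windows of chromosome 14, from 90 to 100 Mb (25 genes, median -0.83) and from 100 to 110 Mb (28 genes, median -0.94), where all genes were below 0. Over the whole arm 14q the median was -0.38, and 33 of 273 genes were above 0. The highest were a window of chromosome 10 from 120 to 130 Mb (0.72) and the last of chromosome 8 from 140 to 150 Mb (0.66, with 42 of 43 genes above 0). Only RNA was measured, so these values say nothing on their own of the DNA there.

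The longest runs of consecutive tested genes on one side of 0 were read gene by gene. From ATG101 to CAND1 on chromosome 12 (52.07 to 67.32 Mb) all 86 tested genes were below 0, with a median of -0.54. From SPRED1 to PIGBOS1 on chromosome 15 (38.25 to 55.32 Mb) 74 genes in a row were below 0, with a median of -0.51. From ZC3H14 to LINC00221 on chromosome 14 (88.56 to 106.5 Mb) it was 56 genes, with a median of -0.86. The longest runs above 0 were 45 genes on chromosome 7 from TRIM56 to CAPZA2 (median 0.60) and 34 on chromosome 8 from TOP1MT to C8orf33 (median 0.75).

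**Figure D4:**
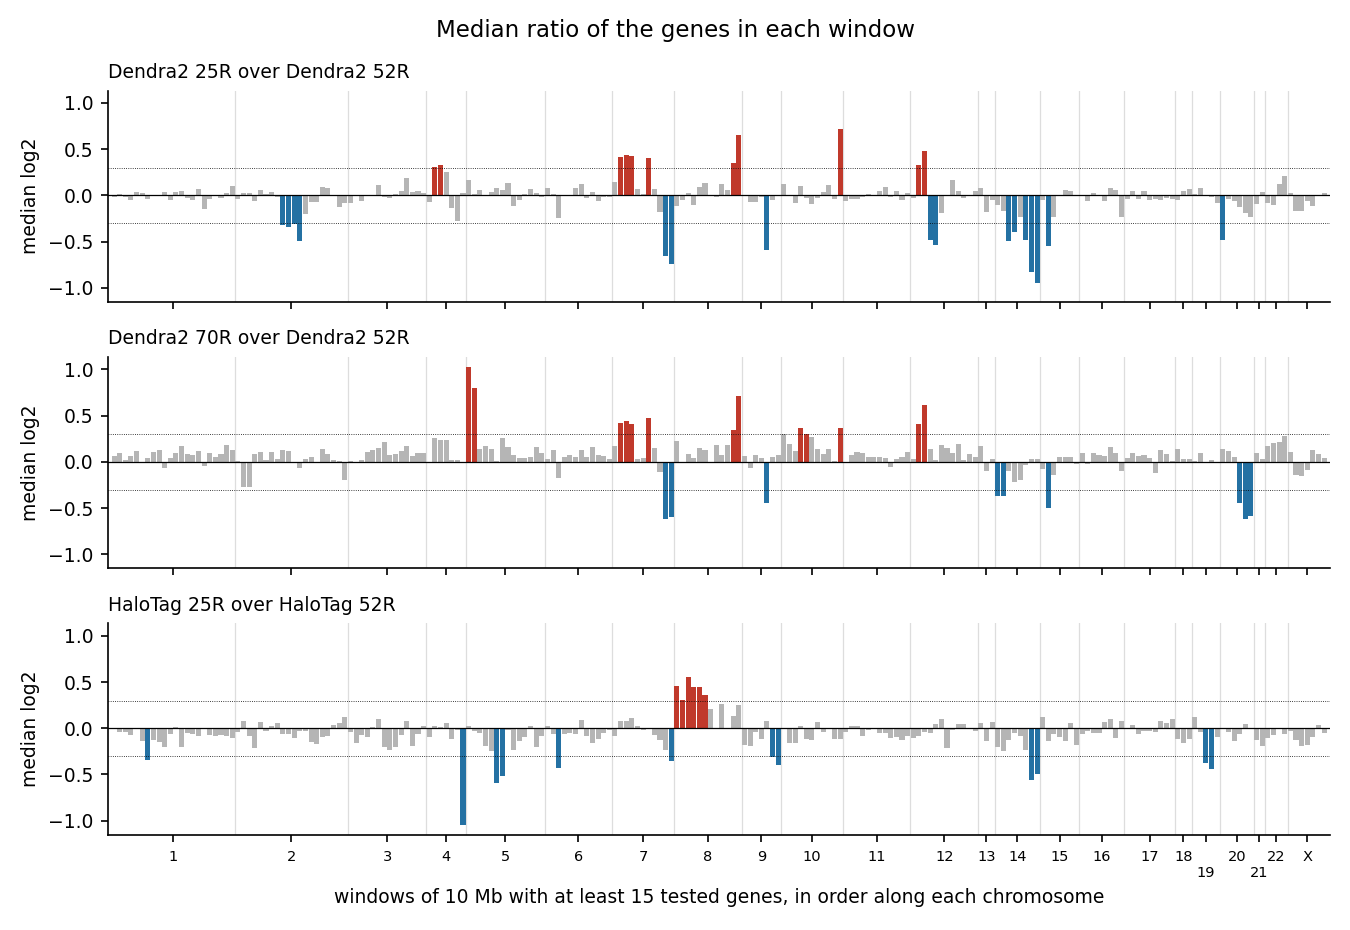
Median log2 ratio (CPM plus 1) of the genes in each window of 10 Mb, in order along the chromosomes, for Dendra2 25R over 52R, Dendra2 70R over 52R (which shares the 52R library) and HaloTag 25R over 52R; red and blue mark medians past 0.3 either way. In the top panel the lowest windows are the last of chromosome 14 (-0.94 and -0.83).

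The same runs were read in the other libraries. The run on chromosome 14 had a median of -0.53 in HaloTag 25R over 52R, where 52 of 56 genes were below 0, and of 0.02 in Dendra2 70R over 52R. The run on chromosome 12 was near 0 in both, at 0.05 and 0.06. The chromosome 15 run had a median of -0.47 in Dendra2 70R over 52R, and the higher runs on chromosomes 7 and 8 had 0.63 and 0.74. That comparison uses the same Dendra2 52R library, so its values are not independent of the ones above. In HaloTag these 3 runs had medians of -0.09, 0.09 and 0.13. Dendra2 25R over 70R, which leaves the 52R library out, had window medians near 0 in 3 of these places, at -0.06 from 40 Mb on chromosome 15, -0.03 from 100 Mb on chromosome 7 and -0.06 from 140 Mb on chromosome 8. There the 52R library differed from both other Dendra2 libraries. The window from 50 Mb on chromosome 12 was at -0.60 and the last of chromosome 14 at -0.95 in 25R over 70R, where 25R differed from both. Over the 216 windows the Dendra2 and HaloTag medians had a Pearson r of 0.265, a description over windows that share genes and cell line.

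The regional shifts and the 2-fold genes overlapped in part. Of the 120 lower genes 42 lay in the lower windows, which is 8.5% of the 494 genes tested there, against 1.08% of the genes outside shifted windows. Of the 50 higher genes 12 lay in the higher windows, 4.04% of 297 genes against 0.517%. The windows were picked by medians of the same ratios, with the 2-fold genes among them. A larger share inside them was therefore nearly fixed in advance and adds no separate support. When the median of the other genes in its window was subtracted from each gene, a step chosen after seeing the data, 43 genes were higher and 84 lower by 2-fold, of which 40 and 80 were so before. LINC00221 and UBR7 are on the lowered part of 14q, and KRT8, KRT81 and GTSF1 lie in the lowered run of chromosome 12, where the other genes had a median of -0.54. KRT81 at -0.69, UBR7 at -0.19 and WARS at -0.27 were no longer past 2-fold after this step, whereas GTSF1 stayed at -5.49. The filament list moved from -0.37 to -0.07 and the replication-dependent histone list from -0.37 to -0.12, while the matrix list, at -0.57, and the p53 list, at 0.38, stayed on their side. Of the 23 tested histone genes 0 lay in shifted windows. HIST1H1A, HIST1H2AK, HIST1H3D and HIST1H4C shared a window of 38 tested genes on chromosome 6. Subtracting its median takes out part of the histone genes' own difference, so the move of that list cannot be read as regional.

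Other genes differed in pairs and trios whose tested neighbours were within 2-fold or went the other way. NES and CRABP2 start 30.8 kb apart on chromosome 1 with no tested gene between them, and had log2 ratios of -2.67 and -2.51. The next tested genes on either side were GPATCH4 at 0.49 and ISG20L2 at 0.17. In HaloTag the pair had -2.48 and -2.33. TNFSF9 and CD70 start 52.2 kb apart on chromosome 19, both higher, between SLC25A23 at 0.27 and GPR108 at 0.03. On chromosome 17 the keratin genes KRT14 and KRT17 and the junction gene JUP (plakoglobin, -1.94) were all lower, although EIF1 between them was at -0.23. MYL2, a ventricular myosin light chain, and LINC01405 start 23.8 kb apart on chromosome 12 and were both lower, at -1.71 and -3.39, but in HaloTag MYL2 was at -1.62 and LINC01405 at 0.14.

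The share of cells with a transcript was compared after thinning every cell to 5000 UMIs, which left out 101 shallower cells of 25R and 34 of 52R. Of 23686 genes 102 (0.431%) were found in at least 10 percentage points more cells of Dendra2 25R and 190 (0.802%) in at least 10 points fewer. The widest gaps were CTAG2, SPANXB1, PVT1, CD70, BNIP3 and SPANXC on the higher side, and HIST1H4C, KRT17, TNNC1, KRT8, CXCL14 and COL1A1 on the lower. TNNC1 was found in 20.4% of cells in 25R and 61.0% in 52R. PVT1 was found in 51.6% and 19.5%.

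The deposited kinetic tables give for each gene a mean, in UMIs per cell, and K of a beta-Poisson fit, which is read as the frequency of transcription bursts, and the mean over K is read as their size. The tables were not scaled for depth, and the cells of Dendra2 25R held 0.883 times as many UMIs on average as those of 52R. Of 4528 genes with a mean of at least 0.5, 45 (0.994%) had K at least 1.5-fold higher in 25R and 640 (14.1%) at least 1.5-fold lower. The median ratio of K was 0.817 and that of the mean 0.876, and once K was divided by its median ratio 218 genes were higher and 168 lower, so the surplus of lower K holds for K as deposited. The limits given with K did not overlap in 54 genes (1.19%) with higher K and 1099 (24.3%) with lower. Among the 4528, 2 genes had fitted values although no kept cell held a UMI, and they are counted once on each side.

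Size is the mean over K, so for genes that passed 2-fold by CPM the difference in the mean has to fall on K, size or both. The 53 lower genes with kinetic values had a median K ratio of 0.574 and a median size ratio of 0.513, and K moved more than size in 20 of them. The 19 higher genes had 1.61 and 1.75, with K moving more in 7. Over all 4528 genes the median K ratio was 0.817 and the median size ratio 1.065. The ratios and counts here were not centred on these medians, so they do not show which part moved more. HIST1H4C had a K of 0.0257 in 25R (limits 0.0226 to 0.0293) and 0.200 in 52R (0.188 to 0.212), and its size was 58.0 and 97.7 UMIs. TNNC1 differed mostly in K, at 0.482 and 2.15, with a size of 1.80 and 1.97. KRT8 differed mostly in size, at 1.09 and 3.38, with K at 2.24 and 3.13. CXCL14 had a K of 0.0973 and 0.440, and KISS1 of 0.0814 and 0.373.

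**Figure D5:**
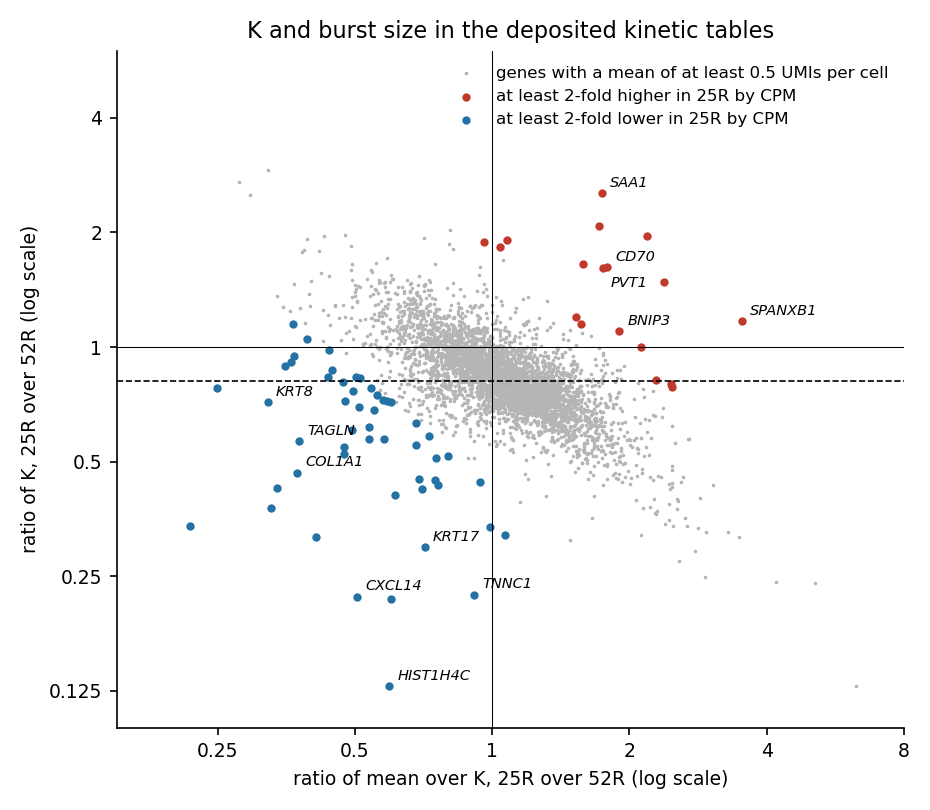
Ratio of burst size (mean over K, horizontal) and ratio of K (vertical), 25R over 52R, on log axes, for 4528 genes of the deposited kinetic tables; the dashed line is the median K ratio of 0.817 and 5 genes lie outside the axes. Genes lower by 2-fold (blue) spread to lower K, lower size or both, with HIST1H4C lowest in K among those labelled.

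On the higher side CTAG2 had a K of 1.56 in 25R and 0.00828 in 52R, and SPANXC of 0.888 and 0.452. In 52R CTAG2 stood at 1.10 CPM, with a UMI in 29 cells, so its K there is poorly set. CTAG2 passed the filter on the mean through its level in 25R. SAA1 had 0.197 and 0.0775, and LINC01029 had 1.79 and 0.864. HOXA10, a homeobox gene of the posterior body, had a K of 3.51 in 25R and 1.73 in 52R at 41.5 and 22.5 CPM. JADE1, a subunit of a histone acetyltransferase complex, had K of 2.79 and 1.42 while its level was even at 28.1 and 29.7 CPM. RILPL2, a regulator of ciliary membrane, had K of 2.03 and 15.8 at an even level of 27.7 and 30.3 CPM. IFT43, a part of the ciliary transport machinery, had K of 3.36 and 62.1, but the upper limit of the latter was 1400, so the size of this difference is poorly set. CD70 had K of 1.04 and 0.642 and a size of 2.32 and 1.30, so both parts were higher in 25R.

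The same contrast at the other tag gave partly the same genes. HaloTag 25R over HaloTag 52R uses none of the libraries above, and of the same 7970 genes 102 (1.28%) were at least 2-fold higher there and 276 (3.46%) lower. Of the 50 genes higher in Dendra2 25R 18 were also higher by 2-fold in HaloTag, 36.0% of the Dendra2 genes and 17.6% of the HaloTag genes, and 40 had the same sign. Of the 120 lower genes 51 were also lower by 2-fold, 42.5% and 18.5% of each list, and 107 had the same sign. The log2 ratios of the pairs had a Pearson r of 0.425 and a Spearman rho of 0.398 across genes, which are not independent replicates. Whether the ratio differed between tags could not be tested with 1 library per tag and CTD length. HIST1H4C, CXCL14, NES, CRABP2, COL1A1, LBH, TNNC1 and KRT17 were at least 2-fold lower in 25R at both tags, and SAA1, SPANXB1, SPANXC, CD70 and NFE4 at least 2-fold higher at both. GTSF1, KRT8, KISS1, DMKN and LINC01405 were 2-fold lower in Dendra2 25R, and had HaloTag log2 ratios of 0.48, -0.06, -0.07, -0.35 and 0.14.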

How the data were processed

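Single-cell RNA of U2OS lines was read with a 10x 3′ kit, per the labels' protocols. The deposited matrices hold UMI counts per gene and cell, and per the file headers Cell Ranger 6.1.2 made them; bcl2fastq and GRCh38 are named in the submitters' processing notes. The deposited kinetic values (mean, K, their limits) are scores that, per the file headers, come from fitting a beta-Poisson model; how the authors filtered cells for it is not described in the labels. The tag transcript was left out of all gene counts, and no doublet caller was run. Counts were summed over kept cells (500 genes, 20% mitochondrial) and scaled to CPM; log2 ratios use a pseudocount of 1 and genes with a mean of at least 10 CPM. With 1 library a side no test was possible; 95% intervals are exact for counting error. Detection shares were compared after thinning to 5000 UMIs. Median cells held 15770 and 18256 UMIs. Per the labels, each HaloTag line has 2 samples with 1 shared deposited matrix; each Dendra2 line has 1 sample.

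Python 3.11.15, numpy 2.4.6, scipy 1.17.1, pandas 2.3.3, matplotlib 3.10.9 and R 4.3.3 were used, with TMM factors from edgeR 4.0.16 and size factors from DESeq2 1.42.0 as alternatives, and gene positions from GENCODE v44. Scripts were tested on simulated data. Named genes are the 12 per direction with the largest ratio at 20 CPM or more, the 6 per direction with the largest detection difference, the 6 with the largest K ratio (mean of at least 0.5, limits apart), up to 4 members of each of 34 lists, and POLR2A, CD70, NES, HIST1H4C, MANCR, CDKN1A and MDM2. Other genes were chosen after their values were seen. The members and lists were chosen with earlier results of these data known. Alternatives were other scalings, pseudocounts, filters, thinning depths and cell-cycle strata.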

Additional observations from a re-analysis of the deposited data

Results flagged for a closer look

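In 5 genes both tags passed 2-fold in opposite directions, and the difference between tags was not tested because each corner of the design is 1 library. CTAG2 had a log2 ratio of 6.14 in Dendra2 and -1.41 in HaloTag, and NLRP1 had 3.33 and -1.13. ADAMTS6, a matrix metalloprotease, had 1.26 and -1.62, at 36.1 and 14.5 CPM in Dendra2 25R and 52R and 12.0 and 39.0 CPM in HaloTag 25R and 52R. KHDC1L, an RNA-binding domain gene, had -2.06 and 1.49, from 3.45 and 17.6 CPM in Dendra2 and 7.05 and 1.88 CPM in HaloTag. SNCG, which encodes gamma-synuclein, had -1.45 and 1.42, from 10.8 and 31.4 CPM in Dendra2 and 54.96 and 19.98 CPM in HaloTag.

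The tag transcript, a sequence outside the gene comparison, had 821 UMIs in Dendra2 25R and 704 in Dendra2 52R. It was found in 20.8% and 20.6% of kept cells.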

How the results depend on the processing

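The number of genes past 2-fold followed the filter on low values: with a mean of at least 50 CPM 11 were higher and 34 lower, of which 19 were also lower in HaloTag, and with no filter beyond 1 UMI 115 were higher and 310 lower, 115 of the latter also in HaloTag. A pseudocount of 5 left 32 higher. TMM scaling gave 54 and 108. Over 39 named genes past 2-fold all 390 alternative values kept the direction and 380 stayed past 2-fold. Most of these genes were named for wide gaps in the same counts, so this was nearly fixed in advance and adds no separate support. Of 404 alternative list medians 395 stayed within an interval around the main median of their list, which can be wide. For the replication-dependent histone list it ran from -0.474 to -0.086 around -0.368. The value of -0.125 after subtracting window medians lay within it, though the subtraction takes out part of the histone genes' own difference. That step changed a list median by up to 0.299. Among cells in the lowest tercile of S phase and G2/M transcripts the histone median turned to 0.13, the p53 median was 0.033 and the S phase median 0.31; the cause was not tested. With no filter the TNF family median was -0.0017, 3 other lists in place of 5 lay past 0.3, and 14q had a median of -0.13 (-0.29 at 50 CPM or more). Thinned to 10000 UMIs, 195 genes were found in more cells and 357 in fewer, and without thinning 973 in fewer. The genes with K at least 1.5-fold higher in Dendra2 25R were 1160 with a mean of at least 0.1, 4 with a mean of at least 2 and 218 after centring. The genes with K at least 1.5-fold lower in Dendra2 25R were 2493, 107 and 168. No paired analysis was possible because each line has 1 library. Apart from the values with no filter, genes with a mean under 10 CPM were not called by fold.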

Other observations

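Further genes past 2-fold belong to no list, were chosen after their values were seen and stand here as values only. VEGFC, a lymphatic growth factor, stood at 18.4 CPM in Dendra2 25R and 4.99 CPM in Dendra2 52R, and PDGFC, a platelet-derived growth factor, at 20.1 and 5.86 CPM. NRG1, a ligand of ERBB receptors, was at 35.0 and 13.7 CPM, and PLAU, the urokinase protease, at 32.2 and 11.3 CPM. These 4 were higher in 25R, with HaloTag log2 ratios of -0.03, 0.57, 3.03 and 0.88. Lower in 25R were MDK, the growth factor midkine, at 56.9 and 202 CPM, and EDN2, an endothelin, at 4.93 and 26.9 CPM. IGFBP5 and IGFBP6, which bind insulin-like growth factors, were at 24.0 and 71.1 CPM and at 14.2 and 50.1 CPM. Their HaloTag log2 ratios were -1.98 for MDK, -2.25 for EDN2, -1.92 for IGFBP5 and 0.26 for IGFBP6. IGFBP6 lies in the lowered run of chromosome 12, where the other genes had a median of -0.54.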
